A study of Sus scrofa with 20 samples.

Results

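Choline phospholipid metabolism was followed in the uterus of sows through 9 genes, led by GPCPD1, over 20 libraries with 1 library per sow. The 9 genes are GPCPD1, GDE1, CHKA, PCYT1A, PCYT2, PEMT, CHPT1, SLC44A1 and SLC44A2, and each was taken by its gene name from the 30345 named rows of the count table. They were chosen by measured values. The contrast behind the choice is not given and was taken to be FR3 against FR2. GPCPD1 was the 1 gene of 17745 tested that was called between those groups, and the other 8 stand beside it as genes of the same pathway. That call was lost in 13 of 20 fits that left out 1 library each, and with epithelium markers as a covariate. Each of the 9 genes had 1 row in the table and passed the filter on low counts.

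The sows were wild-type crosses of Large White and Landrace, and their uterine tissue was taken 6 days after the onset of estrus. There were 4 groups of 5 sows. FR1 sows received the sperm-rich part of the boar ejaculate, FR2 sows received the rich and intermediate parts, and FR3 sows received the rich, intermediate and poor parts. CONTROL sows were not inseminated. The semen came from 3 Pietrain boars, and the labels do not tie a boar or an embryo count to a sow. In any comparison with CONTROL, semen and early pregnancy as sources of a difference cannot be told apart. The sows' ages are not given, and all libraries carry 1 batch label.

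Phosphatidylcholine is the main phospholipid of cell membranes. Cells take up choline through transporters, phosphorylate it, activate it with CTP and join it to diacylglycerol, a route known as the Kennedy or CDP-choline pathway. When phosphatidylcholine loses both fatty acids it becomes glycerophosphocholine, which GPCPD1 splits into choline and glycerol-3-phosphate, so GPCPD1 returns choline to the start of the route. Glycerophosphocholine is abundant in the fluids of the male reproductive tract, and it also serves cells as an osmolyte.

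Library totals ran from 33 to 62.9 M counts, and the lowest count of any of the 9 genes in any library was 989. Levels are given as CPM, the counts scaled to library size with TMM factors, and they compare libraries and not genes, since gene lengths were not used. Changes are log2 fold changes from 1 edgeR quasi-likelihood fit over the 20 libraries, given ± SE. A gene was called when its Benjamini-Hochberg adjusted p over all 17745 genes was below 0.05. The CONTROL libraries stood apart from the rest in 2 ways. Their mean Spearman correlation within the group was 0.926 to 0.977 for inseminated libraries and 0.892 to 0.911 for CONTROL libraries. The 14 markers of uterine epithelium had a mean log2 CPM of 5.73 to 7.59 in inseminated libraries and 7.48 to 8.14 in CONTROL, with 14 of the 15 inseminated libraries below every CONTROL library. The smooth muscle markers were at 6.97 (mean log2 CPM) in CONTROL library 1. The uterine markers HOXA10, HOXA11, HOXD10, ESR1, PGR, EMX2 and MSX1 were above 0 in every library, and HOXA13, with a median of 0.516 CPM, was at 0 in FR3 3.

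GPCPD1 is the cytosolic glycerophosphocholine phosphodiesterase. It had 63.7, 52.3, 50.1, 85.5 and 38.4 CPM in the 5 FR1 libraries. In FR2 it had 96.4, 82.0, 136, 109 and 93.9 CPM. In FR3 it had 28.0, 36.0, 42.1, 42.2 and 41.2 CPM. In CONTROL it had 48.7, 45.6, 34.1, 32.8 and 56.6 CPM. FR2 was the highest group, FR1 spread across the gap below it, and FR3 and CONTROL overlapped. The lowest FR2 library lay above every FR3 and every CONTROL library, and 4 of the 5 FR2 libraries lay above every FR1 library.

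**Figure D1:**
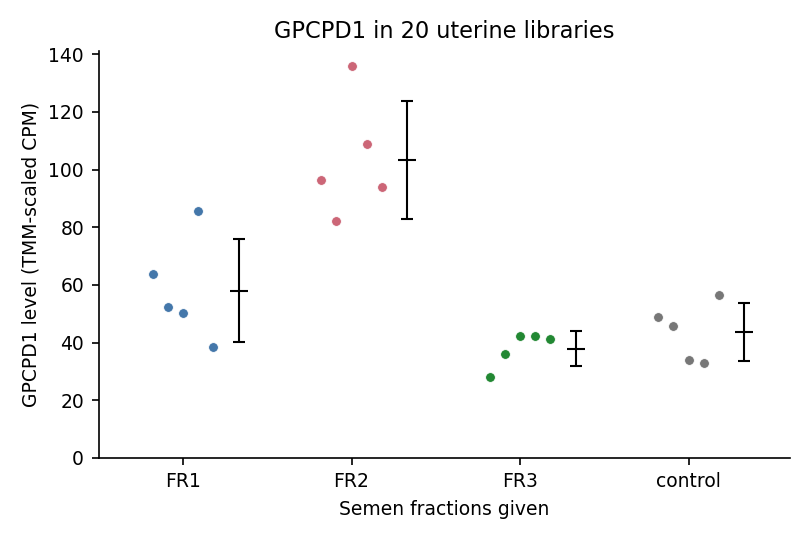
GPCPD1 level (TMM-scaled CPM) in each of the 20 libraries by group, with the mean and SD of 5 libraries beside the points. The FR3 libraries, at 28.0 to 42.2 CPM, lie below all FR2 libraries, at 82.0 to 136 CPM, and the FR2 libraries lie above all CONTROL libraries, at 32.8 to 56.6 CPM.

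Mean GPCPD1 levels were 58.0 ± 17.8 CPM in FR1, 103 ± 20.5 CPM in FR2, 37.9 ± 6.08 CPM in FR3 and 43.5 ± 10.1 CPM in CONTROL (SD, n = 5 each). The fitted log2 change was -1.45 ± 0.21 for FR3 against FR2, a level 0.366 times that of FR2. It was 1.25 ± 0.21 for FR2 against CONTROL, 2.38 times the CONTROL level. FR2 against FR1 gave 0.83 ± 0.21 and FR3 against FR1 gave -0.61 ± 0.21. FR3 against CONTROL gave -0.20 ± 0.21, less than its SE, and the 15 inseminated libraries against CONTROL gave 0.49 ± 0.18. These comparisons use the libraries that singled GPCPD1 out, so they are descriptions and carry no test. By mean level the order was FR2, FR1, CONTROL and FR3, and the libraries of each pair of neighbours in that order overlapped.

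FR1 against CONTROL is the comparison that shares no library with the contrast of FR3 and FR2. GPCPD1 did not pass there, with 58.0 CPM in FR1 and 43.5 CPM in CONTROL, a log2 change of 0.41 ± 0.21 (95% interval -0.02 to 0.85; adjusted p = 0.306, edgeR quasi-likelihood test). Of the 5 FR1 libraries, 2 lay above every CONTROL library. This test is free of the choice of GPCPD1 only if that choice rested on FR3 against FR2.

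As a background to those values, 1 of 17745 genes, 0.00564%, was called between FR3 and FR2, and 3.26% of genes had FR3 and FR2 libraries that did not overlap. Between FR2 and CONTROL 5.55% of genes were called, 1.57% higher and 3.98% lower in FR2, and 5.04% did not overlap. GPCPD1 is counted in each of these figures except the lower one, and because it was taken to be chosen on them nothing is read from its place there. Between FR2 and FR1, and between FR3 and FR1, edgeR called 0 genes (0.0% in each). At an unadjusted p below 0.05, 130 genes passed in FR2 against FR1 and 1471 in FR3 against FR1, while DESeq2 called 0 and 12.

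Whole tissue was sequenced, so fewer cells of a type and less RNA per cell cannot be told apart. The epithelium markers also differed between the groups. Their mean log2 CPM was 5.83 to 7.14 in FR1, 6.34 to 6.92 in FR2 and 5.73 to 7.59 in FR3, against 7.48 to 8.14 in CONTROL. Their summed level was 1759 to 5209 CPM in FR1, 2110 to 3831 in FR2 and 1665 to 6827 in FR3, against 5071 to 7963 CPM in CONTROL. None of the 14 markers was at 0 in any library. In FR3 against FR2, 13 of the 14 had a positive log2 change, with a median of 0.67, and 0 were called. In the inseminated libraries against CONTROL 8 of the 14 fell and 0 rose, with a median of -1.08.

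The library FR3 4 had the lowest epithelium value of all, 5.73 (mean log2 CPM), and its GPCPD1 level was 42.2 CPM. The other 4 FR3 libraries lay at 7.36 to 7.59 on the same marker scale, and their GPCPD1 levels were 28.0 to 42.1 CPM. With the epithelium mean as a covariate, the GPCPD1 log2 change was -1.25 ± 0.19 for FR3 against FR2 and 0.75 ± 0.24 for FR2 against CONTROL, while it was 0.03 ± 0.21 for all inseminated libraries against CONTROL and -0.17 ± 0.26 for FR1 against CONTROL. With the covariate GPCPD1 was not called in FR3 against FR2 or in FR2 against CONTROL. The part of the epithelium in these values was not tested.

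**Figure D2:**
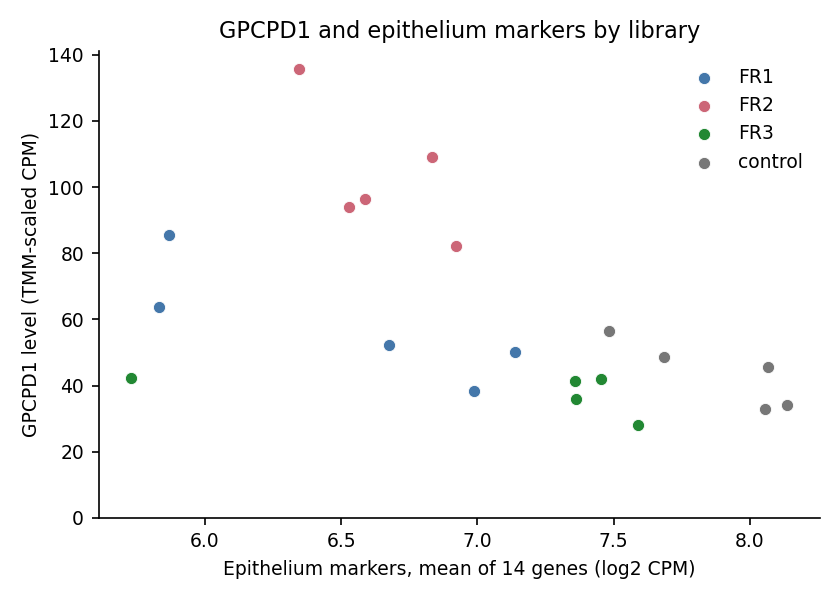
GPCPD1 level (TMM-scaled CPM) against the mean log2 CPM of 14 epithelium markers, 1 point per library and 1 colour per group. The FR2 points lie at 6.34 to 6.92 on the marker scale and above 80 CPM, and 1 FR3 point lies at 5.73 with 42.2 CPM.

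Across the 15 inseminated libraries, 10 of which are the FR3 and FR2 libraries that singled GPCPD1 out, relations with GPCPD1 are given as descriptions with no test. GPCPD1 ran against the epithelium mean with Pearson's r of -0.50 and Spearman's rho of -0.65, and r was -0.54 without FR2 3 and FR2 4, the libraries farthest from the median of GPCPD1. FR2 and FR3 did not overlap in GPCPD1, so such an r carries the group difference. With each level taken relative to its group mean, a form added after the data were seen, r with the epithelium mean was -0.62. Among the other 8 genes SLC44A2 had the strongest relation before that step, with r of -0.63 and rho of -0.58, followed by PCYT1A with r of -0.56 and rho of -0.46. Relative to group means the order was PEMT at 0.65, PCYT1A at -0.59 and SLC44A2 at -0.57, and PEMT had an r of 0.11 before.

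Among all genes tested, those whose levels ranked most like GPCPD1 over the 20 libraries were DSG3, ABHD12B, STRC, METTL14 and LPAR1, with Spearman's rho of 0.857, 0.853, 0.85, 0.847 and 0.845. METTL14, a subunit of the RNA m6A methyltransferase, averaged 36.6 CPM in FR1, 42.3 in FR2, 31.4 in FR3 and 27.8 in CONTROL. LPAR1, a receptor for lysophosphatidic acid, averaged 47.7 CPM in FR1, 59.6 in FR2, 40.1 in FR3 and 37.2 in CONTROL. DSG3, a desmosomal cadherin, was scarce, with means of 0.697 CPM in FR1, 0.963 in FR2, 0.0842 in FR3 and 0.0974 in CONTROL. These genes were picked for their likeness, so the values are descriptions. In the RefSeq annotation of Sscrofa11.1, used for names and neighbours alone, no gene overlapped GPCPD1, and its neighbours PROKR2 and a pseudogene did not pass the filter on low counts.

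None of the other 8 genes was called in any of the 7 comparisons by edgeR, and their log2 changes ran from -0.65 (PEMT, FR2 against CONTROL) to 0.61 (PCYT1A, FR3 against CONTROL). In the inseminated libraries against CONTROL the share of all genes called was 11.1%, with 2.87% higher and 8.2% lower, and 0.468% did not overlap. It was 2.6% in FR1 and 4.27% in FR3 against CONTROL, the FR3 share made up of 1.43% higher and 2.85% lower. At an unadjusted p below 0.05 and with GPCPD1 left aside, GDE1 passed in all inseminated libraries, FR1 and FR2 against CONTROL, and PCYT1A and PCYT2 passed in FR3 against CONTROL. The shares of all genes at that threshold were 26.0%, 18.2%, 21.8% and 21.3% in all inseminated libraries, FR1, FR2 and FR3 against CONTROL. PCYT1A also passed it in FR3 against FR2 and in FR3 against FR1, where 7.37% and 8.29% of all genes passed. DESeq2 called GDE1 in all inseminated libraries (log2 change -0.40) and PCYT1A in FR3 against CONTROL, and limma-voom called neither.

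Over the 9 genes the median log2 change was -0.23 in all inseminated libraries against CONTROL, where the median of all genes was -0.05. It was -0.18 in FR1, -0.23 in FR2 and -0.20 in FR3 against CONTROL, where the medians of all genes were -0.03, -0.04 and -0.06. In FR3 against FR2 it was 0.10, with 6 of the 9 changes positive, and the median of all genes was 0.01.

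**Figure D3:**
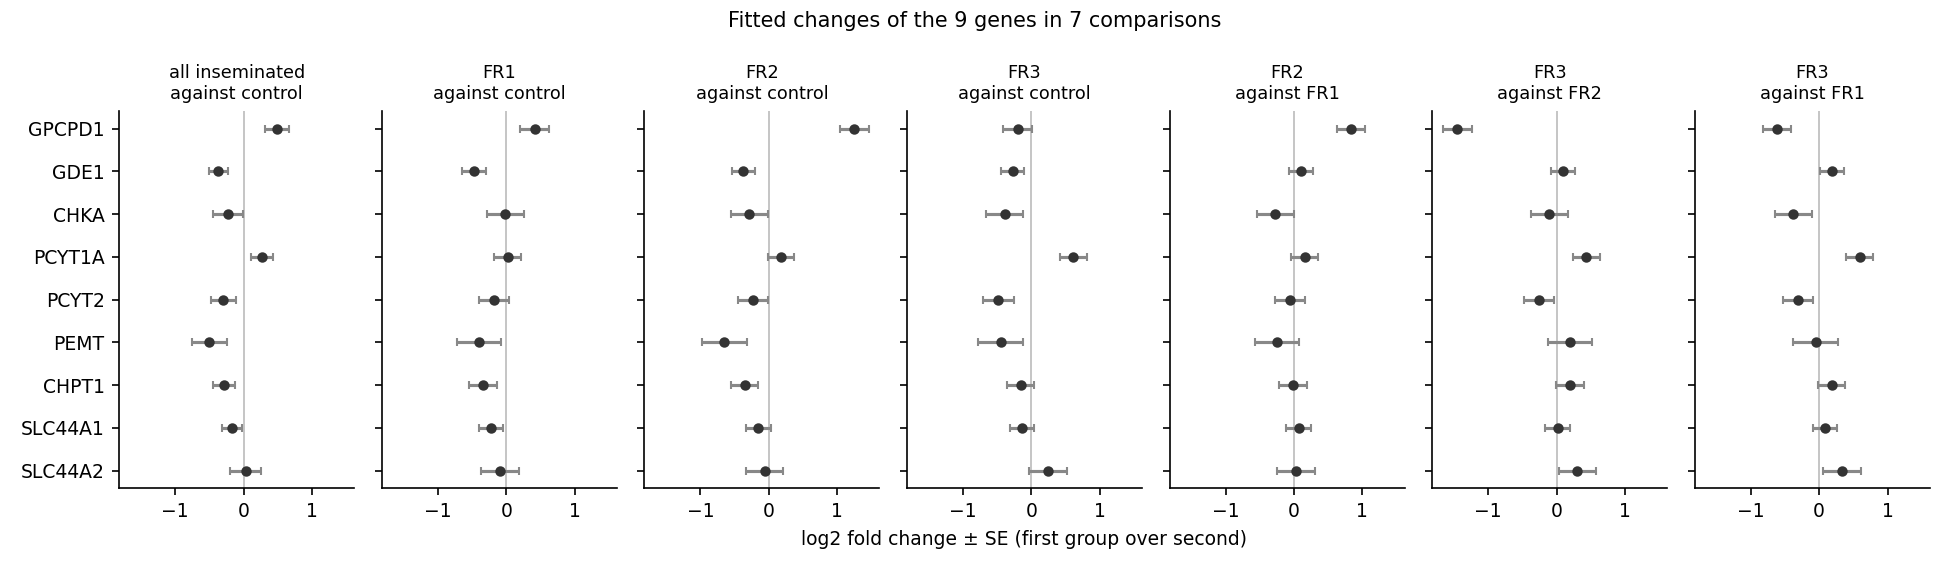
Fitted log2 fold change ± SE of the 9 genes in 7 comparisons, with the group named first over the group named second. GPCPD1 lies at 1.25 for FR2 against CONTROL and at -1.45 for FR3 against FR2, and every other gene lies between -0.65 and 0.61.

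Choline enters cells through transporters that include SLC44A1 and SLC44A2, members of the choline transporter-like family. SLC44A1 had 105, 139, 113, 104 and 121 CPM in FR1, 130.3, 119, 126, 121 and 114 CPM in FR2, and 129, 124, 97.7, 126 and 140.0 CPM in FR3, against 199.5, 162.5, 96.6, 120.5 and 99.2 CPM in CONTROL. The inseminated libraries held to a narrow band inside the CONTROL range, apart from 2 CONTROL libraries above them and 1 below. Its log2 change over all inseminated libraries was -0.17 ± 0.14 (adjusted p = 0.497, edgeR).

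SLC44A2 had 162.5, 179.5, 192, 153 and 174 CPM in FR1, 173.5, 196, 154, 197 and 159.9 CPM in FR2, and 248.5, 257, 224, 171 and 185 CPM in FR3, against 129.8, 216, 363, 127 and 83.7 CPM in CONTROL. Of the FR3 libraries, 3 lay above all of FR2 and all of FR1, while CONTROL 3 lay above every other library. For FR3 the log2 change was 0.30 ± 0.27 against FR2 (adjusted p = 0.797, edgeR), 0.34 ± 0.27 against FR1 (adjusted p = 0.716) and 0.24 ± 0.27 against CONTROL (adjusted p = 0.657). The 95% interval against CONTROL ran from -0.33 to 0.82.

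CHKA, a choline kinase that makes phosphocholine, had 67.6, 49.4, 61.7, 68.3 and 64.0 CPM in FR1, 47.0, 42.3, 56.2, 56.7 and 55.6 CPM in FR2, and 48.6, 46.1, 57.8, 44.3 and 42.6 CPM in FR3. In CONTROL it had 93.2, 32.6, 45.1, 34.2 and 108.8 CPM. CONTROL 1 and CONTROL 5 lay above every inseminated library, and CONTROL 2 and CONTROL 4 lay below them. FR3 against FR1 gave a log2 change of -0.38 ± 0.27 (adjusted p = 0.676, edgeR), with 4 of 5 FR3 libraries below all of FR1. Its RefSeq model overlaps TCIRG1, and since the strand of counting is not known, reads of the overlap cannot be told apart.

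PCYT1A, which makes CDP-choline and sets the pace of the Kennedy pathway, had 42.7, 49.1, 52.6, 37.7 and 37.1 CPM in FR1 and 54.6, 60.3, 33.4, 51.2 and 44.9 CPM in FR2. It had 99.6, 63.4, 48.9, 52.4 and 66.0 CPM in FR3, against 43.2, 51.1, 39.9, 35.0 and 46.9 CPM in CONTROL. FR3 was the highest group, and 4 of its 5 libraries lay above every CONTROL library. The log2 change was 0.61 ± 0.20 for FR3 against CONTROL, which missed the threshold (95% interval 0.20 to 1.02; adjusted p = 0.0784, edgeR). FR3 against FR1 gave 0.59 ± 0.20 (adjusted p = 0.586) and FR3 against FR2 gave 0.44 ± 0.20 (adjusted p = 0.669). FR3 1, at 99.6 CPM, carried the highest value, and without it the change against CONTROL was 0.41. The call was reached with DESeq2, with the epithelium covariate, without CONTROL 5 and without FR3 3. The RefSeq model of PCYT1A overlaps TCTEX1D2, whose log2 change was 0.40 in FR3 against FR2 and -0.41 in FR2 against CONTROL.

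PCYT2, which activates ethanolamine in the parallel route to phosphatidylethanolamine, averaged 60.6 ± 17.3 CPM in FR1, 58.3 ± 5.46 in FR2 and 48.9 ± 11.6 in FR3, against 68.4 ± 19.8 CPM in CONTROL (SD, n = 5 each). Its log2 change in FR3 against CONTROL was -0.48 ± 0.22 (adjusted p = 0.215, edgeR), with 2 FR3 libraries below every CONTROL library. CHPT1, the Golgi enzyme that joins CDP-choline to diacylglycerol, averaged 45.1 ± 5.54 CPM in FR1, 44.6 ± 5.38 in FR2 and 51.2 ± 7.56 in FR3, against 57.0 ± 21.3 in CONTROL. CONTROL 2 and CONTROL 3, at 73.3 and 85.4 CPM, lay above every inseminated library. Its log2 change over all inseminated libraries was -0.28 ± 0.16 (adjusted p = 0.283).

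PEMT, which makes phosphatidylcholine by methylating phosphatidylethanolamine, had 42.3, 38.7, 50.6, 69.1 and 40.7 CPM in FR1, 35.6, 33.5, 55.8, 43.2 and 34.9 in FR2, and 36.8, 33.4, 78.5, 48.5 and 35.5 in FR3. In CONTROL it had 61.1, 25.3, 40.3, 111.7 and 79.8 CPM. The groups overlapped throughout, and CONTROL held both the lowest and the highest library. The log2 change was -0.65 ± 0.32 in FR2 against CONTROL (adjusted p = 0.249, edgeR) and -0.50 ± 0.26 over all inseminated libraries (adjusted p = 0.228).

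GDE1, a membrane-bound glycerophosphodiester phosphodiesterase, averaged 32.3 ± 2.67 CPM in FR1, 34.5 ± 2.29 in FR2 and 36.9 ± 5.46 in FR3, against 44.7 ± 14.8 in CONTROL (SD, n = 5 each). Of the 8 genes it came closest to the threshold over all inseminated libraries, with a log2 change of -0.37 ± 0.14 (adjusted p = 0.0935, edgeR). CONTROL 3 had 68.6 CPM and CONTROL 1 had 48.4 CPM, both above every inseminated library, and the other 3 CONTROL libraries, at 31.4 to 38.9 CPM, lay within the inseminated range. Without CONTROL 3 the change was -0.16, and without CONTROL 5 it was -0.47 and was called. Between fractions, GDE1 gave 0.10 ± 0.17 in FR2 against FR1 and 0.10 ± 0.17 in FR3 against FR2. Since GPCPD1 was taken to be chosen on FR3 against FR2, nothing is read from how GDE1 and GPCPD1 differ there.

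**Figure D4:**
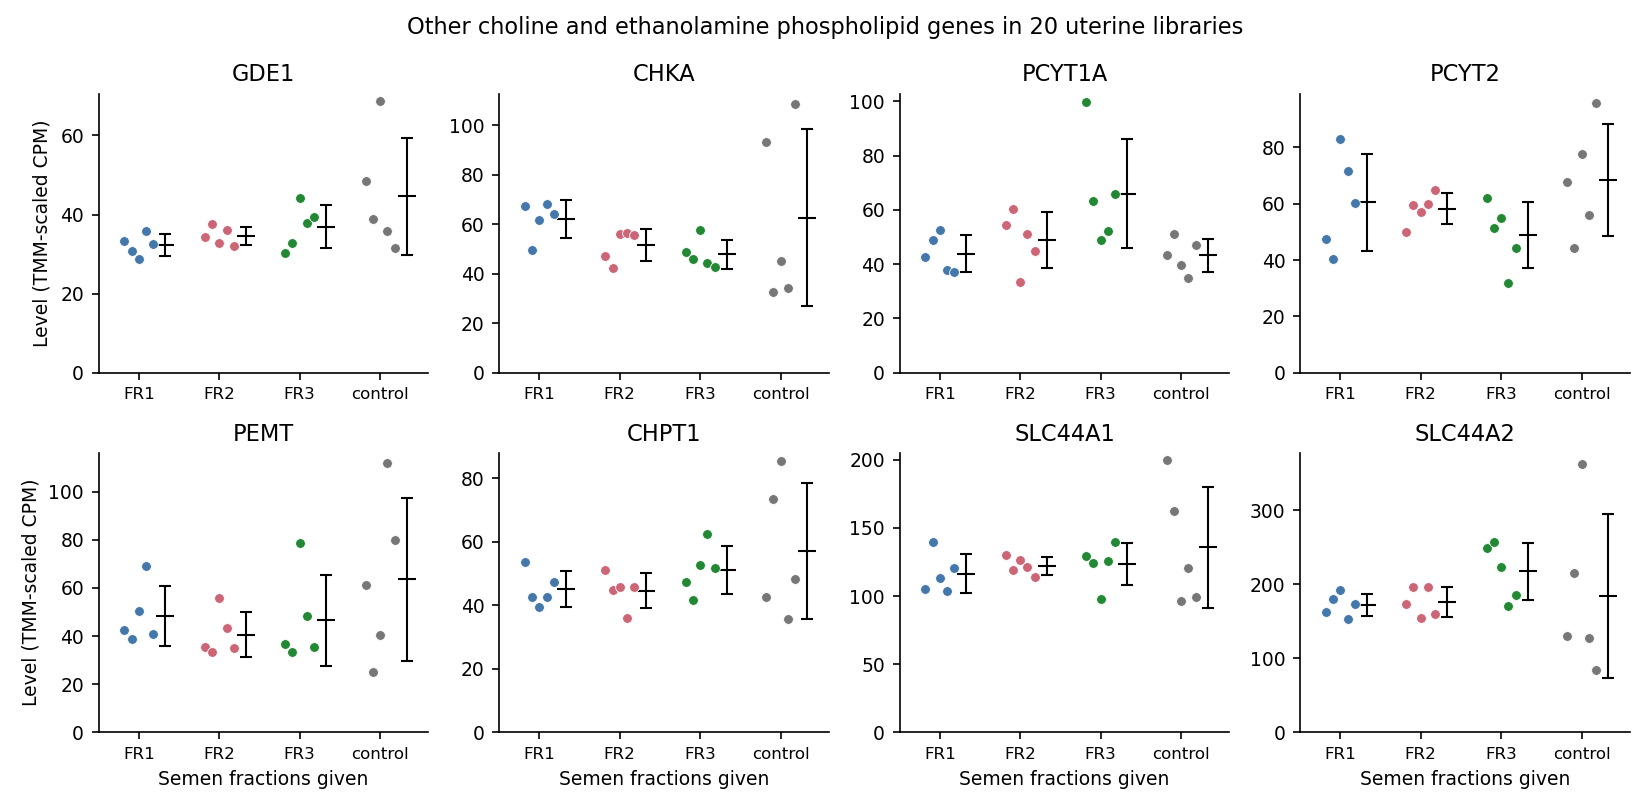
Levels (TMM-scaled CPM) of the other 8 genes in each of the 20 libraries by group, with the mean and SD of 5 libraries beside the points. The CONTROL points spread most widely in 7 of the panels, and the FR3 points of PCYT1A reach 99.6 CPM.

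The fit used 1 spread per gene for all 4 groups, so the CONTROL libraries entered the error of every comparison. For SLC44A2 the SE was 0.274 for FR3 against FR2 and also for FR3 against CONTROL. Where CONTROL spread most widely, a shared SE is too small for comparisons with CONTROL and too large for those between fractions. For 7 of the 9 genes the SD of the log2 level was largest in CONTROL, as it was for 60.0% of all genes tested, with GPCPD1 (FR1) and PCYT1A (FR3) as the exceptions. The coefficient of variation of SLC44A2 was 8.86% in FR1, 11.3% in FR2 and 17.5% in FR3, against 60.3% in CONTROL. For CHKA it was 12.3%, 12.6% and 12.5%, against 56.9% in CONTROL. GPCPD1 had 30.7% in FR1, 19.8% in FR2 and 16.1% in FR3, against 23.2% in CONTROL.

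The wider pathway was read in 9 lists of 69 genes, of which 67 were in the table and 62 were tested. The lists were chosen with earlier results of these data known, so their shares beside those of all genes are descriptions. In the inseminated libraries against CONTROL 12 of the 62 were called, 19.4%, with 4 higher and 8 lower, where 11.1% of all genes were called, 2.87% higher and 8.2% lower. The median log2 change of the 62 genes was 0.06, and that of all genes was -0.05. The number of calls moved with the CONTROL libraries: 0 rose and 2 fell without CONTROL 3, 1 rose and 4 fell without CONTROL 4, and 0 were called without CONTROL 2, 3 and 4 together, a setting added after the data were seen. The shares of all genes called in those fits are not given here. An exact rank-sum test called ENPP6 and LYPLA2, but the share of all genes it called is not given here. Of the 12 heat shock and immediate early genes, 7 fell in the same comparison, and their mean log2 CPM was 4.43 to 5.83 in the inseminated libraries, against 4.07 to 8.23 in CONTROL, the highest in CONTROL 3. Their part in these calls was not tested.

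Among the glycerophosphodiester enzymes 1 of 7 tested rose and 1 fell. ENPP6, a choline-specific glycerophosphodiesterase at the cell surface, had 0.956 to 1.73 CPM in FR1, 1.29 to 3.12 in FR2 (median 2.39) and 1.06 to 3.16 in FR3, against 0.251, 0.792, 0.413, 0.839 and 1.09 CPM in CONTROL. Of the 15 inseminated libraries, 12 lay above every CONTROL library, and the log2 change was 1.38 ± 0.36 (adjusted p = 0.0189, edgeR). Without CONTROL 3 it was 1.24 and missed the threshold.

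GDPD5, a glycerophosphocholine phosphodiesterase that responds to salt and urea in mouse kidney cells, had 3.48 to 7.62 CPM over the inseminated libraries, against 6.10, 6.93, 4.93, 35.1 and 8.94 CPM in CONTROL. Its log2 change was -1.27 ± 0.31 (adjusted p = 0.0116, edgeR). CONTROL 4 stood far above the rest, and without it the change was -0.38 and was not called.

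Among the transporters 1 of 6 tested fell. SLC44A4, a choline transporter-like protein of epithelia, had 43.8 to 77.1 CPM in FR1, 25.6 to 67.4 in FR2 and 21.2 to 62.3 in FR3, against 106, 71.5, 107.5, 103.5 and 58.2 CPM in CONTROL. Of the 15 inseminated libraries, 10 lay below every CONTROL library, and the log2 change was -0.92 ± 0.23 (adjusted p = 0.0154, edgeR). It was -0.84 without CONTROL 3 or CONTROL 4 and missed the threshold in both. With the epithelium markers as a covariate the change was -1.32 ± 0.35.

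In the Kennedy pathway 1 of 10 tested rose. CEPT1, which joins CDP-choline or CDP-ethanolamine to diacylglycerol, had 31.9 to 51.9 CPM in FR1, 41.1 to 51.2 in FR2 and 37.5 to 50.5 in FR3, against 31.4, 24.6, 27.7, 22.2 and 42.8 CPM in CONTROL. The log2 change was 0.56 ± 0.15 (adjusted p = 0.018, edgeR), and the call was lost without CONTROL 3 or CONTROL 4, at 0.48 to 0.54. In the list of phosphatidylcholine transfer proteins 1 of 3 rose. PCTP, the phosphatidylcholine transfer protein, had 97.2 to 224 CPM over the inseminated libraries, against 63.0, 49.9, 10.8, 19.8 and 127 CPM in CONTROL, a log2 change of 1.37 ± 0.39 (adjusted p = 0.0286). CONTROL 5 lay inside the inseminated range, and the call was lost without CONTROL 2, CONTROL 3 or CONTROL 4, at 1.12 to 1.35.

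Among the osmolyte genes 1 of 5 fell. SLC5A3, the transporter of myo-inositol, had 8.60 to 19.2 CPM in FR1, 7.49 to 13.2 in FR2 and 1.71 to 12.3 in FR3, against 26.8, 42.3, 63.7, 21.1 and 11.3 CPM in CONTROL. Of the CONTROL libraries, 4 lay above every inseminated one. The log2 change was -1.64 ± 0.33 (adjusted p = 0.00308, edgeR), and the call held in each of the 20 fits that left out 1 library. Without CONTROL 2, 3 and 4 together the change was -0.81 ± 0.44 and was not called.

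In the deacylation list 2 of 10 fell. LYPLA2, a lysophospholipase and acyl-protein thioesterase, had 30.2 to 41.2 CPM over the inseminated libraries, against 42.2, 41.7, 92.5, 48.1 and 42.6 CPM in CONTROL, so the groups did not overlap. Its log2 change was -0.58 ± 0.15 (adjusted p = 0.015, edgeR), and it was -0.29 and not called without CONTROL 3. PLA2G15, the lysosomal phospholipase A2, had 5.29 to 11.2 CPM in the inseminated libraries, against 6.56 to 12.6 CPM in 4 CONTROL libraries and 44.7 CPM in CONTROL 3. Its log2 change was -0.98 ± 0.30 (adjusted p = 0.0442), and it was -0.17 without CONTROL 3. That call was lost in 14 of 20 fits that left out 1 library, 13 of them without an inseminated library.

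Of the 7 reacylation enzymes LPCAT3 rose and LPCAT2 fell. Both add a fatty acid back to lysophosphatidylcholine. LPCAT3 averaged 51.3 ± 6.61 CPM in the inseminated libraries (n = 15) and 32.4 ± 15.9 CPM in CONTROL (SD, n = 5), a log2 change of 0.66 ± 0.20 (adjusted p = 0.0409, edgeR). LPCAT2 averaged 10.8 ± 2.56 CPM in the inseminated libraries and 15.6 ± 3.34 CPM in CONTROL, a log2 change of -0.55 ± 0.16 (adjusted p = 0.0362). Of the 9 genes of phosphatidylserine and sphingomyelin 2 fell: SMPD1, the acid sphingomyelinase, with a log2 change of -0.67 ± 0.20 (adjusted p = 0.0386), and PISD, the phosphatidylserine decarboxylase, with -0.71 ± 0.21 (adjusted p = 0.039). These 4 calls lay near the threshold. Of 20 fits that left out 1 library each, 11 lost LPCAT3, 10 lost LPCAT2, 9 lost SMPD1 and 14 lost PISD, and in each case the loss of CONTROL 2, CONTROL 3 or CONTROL 4 was among them.

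**Figure D5:**
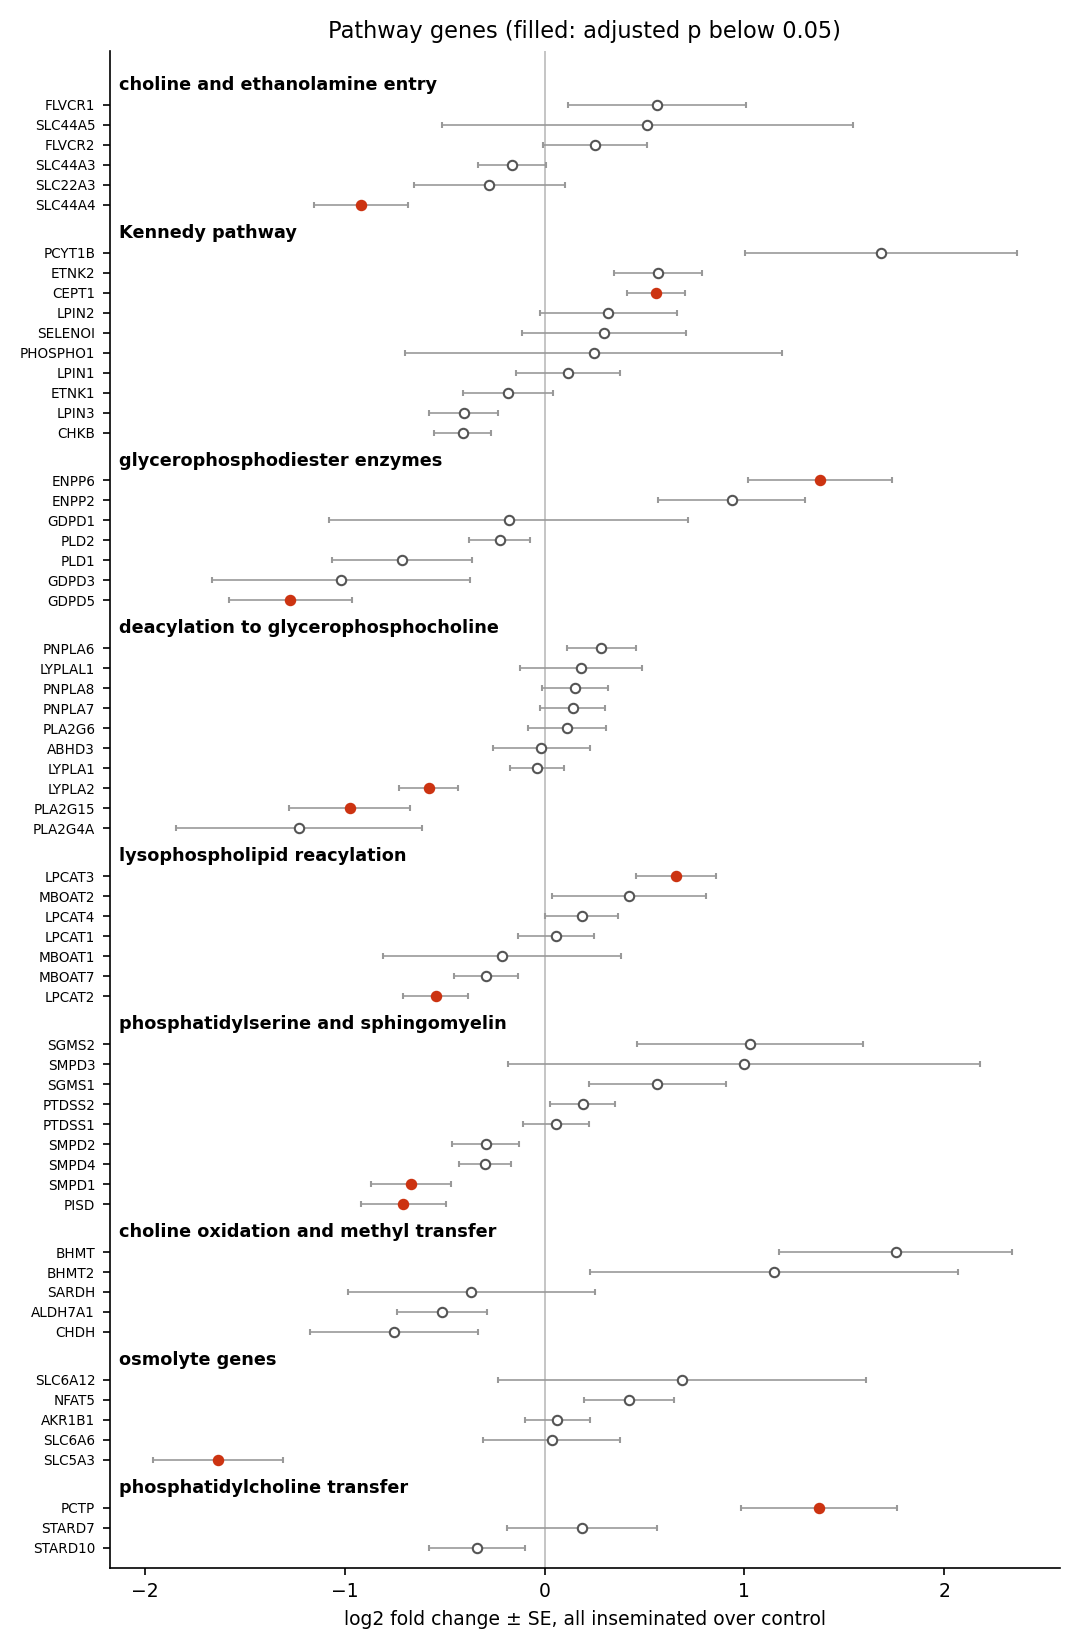
Log2 fold change ± SE of the 62 pathway genes tested, all inseminated libraries over CONTROL, in 9 lists, with filled points for an adjusted p below 0.05. The 12 filled points run from SLC5A3 at -1.64 to ENPP6 at 1.38.

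By group, 0 of the 62 pathway genes were called in FR1 against CONTROL by edgeR and by limma-voom. DESeq2 called 3, and 16 had an unadjusted edgeR p below 0.05. The shares of all genes that limma-voom and DESeq2 called in that comparison are not given here, so nothing is read from their counts. Of all genes, edgeR called 2.6% there, and 18.2% had an unadjusted p below 0.05. The closest was SMPD1, with 74.2 ± 18.7 CPM in FR1 and 143 ± 46.0 CPM in CONTROL (adjusted p = 0.0544, edgeR). The values of smallest p in the other lists, none of which passed, were a log2 change of 2.12 for PCYT1B, -0.64 for SLC44A4, -1.04 for GDPD5, -0.53 for LYPLA2, -0.63 for LPCAT2, -0.61 for ALDH7A1, -1.14 for SLC5A3 and 1.17 for PCTP.

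In FR2 against CONTROL 5 of the 62 were called, 8.06%, where 5.55% of all genes were called. ENPP6 rose by 1.76 ± 0.42 (adjusted p = 0.0217, edgeR), with no overlap between the groups, as for 5.04% of all genes. CEPT1 rose by 0.64 ± 0.17 (adjusted p = 0.0392) and PCTP by 1.56 ± 0.45 (adjusted p = 0.0475), while LPCAT2, at -0.76 ± 0.21, and SLC5A3, at -1.61 ± 0.44, fell (adjusted p = 0.0382 and 0.04). Of 20 fits that left out 1 library each, 17 lost the PCTP call, 11 lost SLC5A3, 10 lost LPCAT2, 8 lost CEPT1 and 3 lost ENPP6. In FR3 against CONTROL 4 of the 62 were called, 6.45%, where 4.27% of all genes were called. SLC44A4, GDPD5 and SLC5A3 fell, at -1.14 ± 0.30, -1.57 ± 0.41 and -2.16 ± 0.45 (adjusted p = 0.0405, 0.0385 and 0.0174). The SLC44A4 call was lost in 8 of 20 such fits, GDPD5 in 8 and SLC5A3 in 3, and GDPD5 was at -0.69 without CONTROL 4. Leaving out 1 CONTROL library gave 0 (CONTROL 3) to 11 (CONTROL 5) calls in FR2, 1 (CONTROL 3 or 4) to 12 (CONTROL 5) in FR3 and 0 (CONTROL 2, 3 or 4) to 6 (CONTROL 5) in FR1 against CONTROL. The shares of all genes called in those fits are not given here, so nothing is read from these counts about the pathway. When the fit held only the libraries of the groups compared, 0 pathway genes were called in FR1, FR2 or FR3 against CONTROL, where the fit also called 0, 1 and 0 of all genes.

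BHMT, which passes a methyl group from betaine, the oxidation product of choline, to homocysteine, was the 1 pathway gene that rose in FR3 against CONTROL. It had 0.729, 1.39, 4.34, 0.758 and 3.91 CPM in FR3, against 0.189, 0.843, 0.0459, 0.294 and 0.347 CPM in CONTROL. Of the FR3 libraries, 3 lay above every CONTROL library, and the log2 change was 2.69 ± 0.68 (adjusted p = 0.033, edgeR). In FR2 BHMT had 0.695 to 2.75 CPM and in FR1 0.240 to 0.741 CPM. The change was 2.24 ± 0.67 in FR2 against CONTROL (adjusted p = 0.0541) and 2.34 ± 0.67 in FR3 against FR1 (adjusted p = 0.586). The FR3 call was lost in 6 of 20 fits that left out 1 library, those without CONTROL 3, CONTROL 4 or FR3 1, 2, 3 or 5, at 2.28 to 2.90.

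Between the fractions 0 of the 62 pathway genes were called in each comparison by edgeR. Of them, 1, 5 and 7 had an unadjusted p below 0.05 in FR2 against FR1, FR3 against FR2 and FR3 against FR1. The shares of all genes at that threshold were 0.733%, 7.37% and 8.29%. In FR3 against FR2, the comparison in which GPCPD1 differed most, the 7 glycerophosphodiester genes had log2 changes of -0.92 ± 0.45 for PLD1, which had the smallest p, 0.80 ± 0.43 for ENPP2, -0.22 ± 0.19 for PLD2, -0.36 ± 0.40 for GDPD5, -0.31 ± 0.40 for ENPP6, 0.29 ± 0.84 for GDPD3 and -0.24 ± 1.11 for GDPD1. In the other lists the values of smallest p for FR3 against FR2, none of which passed, were -2.38 for SLC6A12, a betaine transporter, 1.07 for PLA2G4A, the cytosolic phospholipase A2, -0.43 for ETNK2, an ethanolamine kinase, -1.10 for SLC44A5, -0.56 for LPCAT4, 0.45 for PTDSS1, 1.06 for BHMT2 and 0.62 for STARD10. SLC6A12, SLC44A5 and BHMT2 were scarce, with means of 0.1411, 0.1004 and 0.4695 CPM in FR3 and 0.7526, 0.2281 and 0.2247 CPM in FR2. The SEs of their changes were 1.137, 1.215 and 1.055. GPCPD1 and ENPP6, which both free choline or phosphocholine from glycerophosphocholine, had their highest group mean in FR2. For GPCPD1 this is part of what it was taken to be chosen on. Of the other glycerophosphodiester genes GDPD1 was also highest in FR2 and ENPP2 in FR3. GDPD3, GDPD5, PLD1 and PLD2, and the member GDE1, were highest in CONTROL. GDPD5 averaged 12.4 CPM in CONTROL, with CONTROL 4 far above the rest, and 5.36 CPM in FR2. ENPP6 averaged 1.29 ± 0.33 CPM in FR1, 2.30 ± 0.70 in FR2 and 1.84 ± 0.82 in FR3, against 0.677 ± 0.34 in CONTROL (SD, n = 5 each). For ENPP6 the difference of FR2 against FR1 was 0.83 ± 0.41 and did not pass (adjusted p = 1.0, edgeR).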

How the data were processed

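Messenger RNA of 20 uteri was sequenced, 1 library per sow and 5 sows per group. The deposited values are estimated counts per gene, not scaled to library totals. The tools STAR 2.7.9a, Salmon 1.10.1 and CASAVA were run, per the submitters' processing notes. The build, annotation and strand setting are not given in the sources used here. Of the deposited estimated counts 87.2% were whole; all were rounded. Of 30369 rows, 24 name no gene and were left out (0.0036% to 0.0133% of counts). The table's columns give a group and a number from 1 to 5 while the labels number the sows from 1 to 20, so a column's group is known and its sow is not.

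Counts were tested in edgeR 4.0.16 (R 4.3.3) with TMM factors, filterByExpr (17745 genes kept), 1 quasi-likelihood fit of 4 group means (16 residual degrees of freedom) and 2-sided tests, adjusted by Benjamini-Hochberg over all genes. SE is the log2 change divided by the square root of F. Correlations are Pearson's r and Spearman's rho (scipy 1.17.1), given without a test. In the fit of 20 libraries the p-values set group differences against the spread between sows, estimated per gene over all 4 groups. Alternatives were DESeq2 1.42.0, limma-voom (limma 3.58.1), relative log expression factors in edgeR, 2 filters on low counts, the groups compared alone, the epithelium marker mean as a covariate, an exact rank-sum test over 15504 sets of 5 libraries, and leaving out each library. The procedure was tested on simulated counts with 1 spread per gene shared by all groups. Such counts cannot show how calls behave where CONTROL spreads more widely than the other groups. Named pathway genes are up to 3 called genes per direction, list and comparison, or the 1 with the smallest p, and the 5 genes ranking most like GPCPD1. The members and lists were chosen with earlier results of these data known.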

Additional observations from a re-analysis of the deposited data

Results flagged for a closer look

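In 88 sets of 5 libraries, 22 genes in 4 groups, the highest or lowest library was compared with the rest, and a gap above 0.71 of the group's range singles it out; chance gives about 1 in 20 such sets. GDPD5 stood out in CONTROL 4, at 35.1 CPM, with a gap of 0.867 of the range. LYPLA2 stood out in CONTROL 3, at 92.5 CPM, with a gap of 0.874. PLA2G15 also stood out in CONTROL 3, at 44.7 CPM, with a gap of 0.842. None of the 9 choline phospholipid genes had such a library in any group.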

How the results depend on the processing

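With the epithelium covariate 0 of the 9 genes were called in FR2 against CONTROL and 0 in FR3 against FR2, and 1 (PCYT1A) in FR3 against CONTROL; with the groups compared alone 0 were called in FR2 against CONTROL. DESeq2 called 1 in FR3 against CONTROL and 1 in all inseminated libraries. Without CONTROL 2, 3 and 4 together, 1 (CHKA) was called in FR3 and 2 (CHKA and SLC44A2) in all inseminated libraries. Leaving out 1 library gave 0 to 1 in FR3 against FR2, 0 to 1 in FR3 against CONTROL and 0 to 2 in all inseminated libraries. The shares of all genes called with the covariate, without CONTROL 2, 3 and 4 together or with 1 library left out are not given here. Nothing is read from those counts of members.

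Signs turned, for values that were not called, as follows; the cause was not tested. With the epithelium covariate, values were GPCPD1 -0.171, PCYT2 0.125 and SLC44A2 0.493 in FR1 against CONTROL, PCYT2 0.041 and SLC44A2 0.462 in FR2 against CONTROL, CHKA 0.018 in FR3 against FR2, PEMT 0.076 in FR3 against FR1, and CHPT1 0.0 and SLC44A2 -0.032 in FR2 against FR1. With limma-voom, FR1 against CONTROL gave CHKA 0.163 and SLC44A2 0.091, and FR2 against CONTROL gave SLC44A2 0.122. DESeq2 and relative log expression factors both gave PCYT1A -0.009 in FR1 against CONTROL and SLC44A2 -0.007 over all inseminated libraries. Without CONTROL 2, 3 and 4 together, CHPT1 was 0.027 in FR1, 0.18 in FR3 and 0.066 in all inseminated libraries, PCYT1A was -0.01 in FR1, and SLC44A2 was 0.724 in FR1 and 0.737 in FR2. The correlation of GPCPD1 with PEMT was -0.021 without the 2 farthest libraries, and relative to group means it was 0.102 with CHPT1 and -0.149 with PCYT2.

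Leaving out 1 library at a time spanned 0 for CHKA in FR1 (-0.175 to 0.311), FR2 (-0.445 to 0.02) and all inseminated libraries (-0.391 to 0.077) against CONTROL; for CHPT1 in FR3 against CONTROL (-0.286 to 0.029) and FR2 against FR1 (-0.069 to 0.053); for PCYT1A in FR1 against CONTROL (-0.051 to 0.09); for PCYT2 in FR2 against FR1 (-0.17 to 0.084); and for PEMT in FR3 against FR1 (-0.352 to 0.11) and against FR2 (-0.084 to 0.338). It did so for SLC44A1 in FR2 (-0.249 to 0.03), FR3 (-0.244 to 0.046) and all inseminated libraries (-0.265 to 0.013) against CONTROL and FR3 against FR2 (-0.034 to 0.08), and for SLC44A2 in FR1 (-0.261 to 0.325), FR2 (-0.25 to 0.336) and all inseminated libraries (-0.156 to 0.43) against CONTROL and FR2 against FR1 (-0.012 to 0.076). GPCPD1 kept its sign in these runs in all 7 comparisons, with -1.523 to -1.331 in FR3 against FR2 and 1.132 to 1.369 in FR2 against CONTROL.

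The number of genes called moved widely in all: over all inseminated libraries it was 1965 with edgeR, 2887 with DESeq2 and 1308 with limma-voom. No paired analysis was possible because the labels number the sows from 1 to 20 and the table's columns carry no sow number shared between groups. With 5 libraries a group, the intervals of the members not called remained wide.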
